A study of Arabidopsis thaliana with 18 samples.

Results

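The 10 genes described here encode MADS-box transcription factors of Arabidopsis thaliana that act in the fruit, the ovule and seed coat, or the embryo. They were chosen by locus identifier, with earlier results of these data known: SHP1 (AT3G58780), SHP2 (AT2G42830), STK (AT4G09960), TT16 (AT5G23260), FUL (AT5G60910), SEP3 (AT1G24260), AGL15 (AT5G13790), AGL18 (AT3G57390), AGL67 (AT1G77950) and AGL87 (AT1G22590). They are 10 of 33602 genes in the count table of the second set of libraries. In the table of the first set, which holds 33201 loci, 9 of the 10 had an entry under their identifier, and SEP3 had none.

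MADS-box proteins bind DNA as dimers and assemble into larger complexes, in which SEP3 serves as a common partner. In the fruit wall, FUL promotes growth of the valves and keeps SHP1 and SHP2 out of them, and the SHP genes specify the valve margin where the ripe fruit opens. In the ovule, SHP1, SHP2 and STK act together in ovule identity, and STK and TT16 act later in the seed coat, where proanthocyanidins are made. AGL15 and AGL18 delay flowering, and AGL15 also acts in the embryo, where it regulates seed maturation genes.

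The study compared developing seeds of wild type (Col-0 background) with seeds of a T-DNA double mutant, badc1/badc3, collected 9 to 10 days after flowering. BADC1 and BADC3 encode proteins that hold back the plastid acetyl-CoA carboxylase of fatty acid synthesis. The first set held 3 COL0 (wild type) and 3 badc-tdna13 (mutant) libraries of polyA RNA, while AtWT and AtWTtr (wild type) and AtBD and AtBDtr (mutant), again with 3 libraries per group, made up the second set. No label spells out "tr". The study's design text also describes wild-type and badc1/3 plants carrying a FLAG-tagged ribosomal protein, HF-RPL18, driven by the soybean glycinin promoter (glycinin is a seed storage protein), from which ribosome-associated RNA was isolated. The labels do not say whether libraries of 1 group came from separate plants, so the tests measure the spread between libraries, which may be technical.

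Totals were 9546528 to 11574156 fragments per library in the first set and 16977673 to 32547007 counts in the second. BADC3 had 65.6 to 98.9 CPM (counts scaled to library size) in the wild-type libraries of the second set and 0.0792 to 0.697 in the mutant ones. In the first set, COL0 replicate 2 and badc-tdna13 replicate 2 held the same rounded fragments at 17287 of 17287 loci compared, and BADC3 stood at 64.6 CPM in both, against 6.90 and 3.32 in the other badc-tdna13 libraries. These identical libraries cannot stand for both genotypes, so they were left out of the main test of the first set, and results with them are given beside it. Tissue markers were summed in the second set: in AtWT the level was 60434 to 82756 CPM for embryo markers, 2317 to 3307 for endosperm, 1120 to 1378 for seed coat and 115 to 132 for silique wall markers. The endosperm sum was almost all from 1 gene, EPR1, at 2294 to 3281 CPM, and most of the seed coat sum was from SBT1.7, at 715 to 895. In each AtWT library, 1 to 3 of the 9 endosperm markers were at 0. In the first set 5 of the 7 embryo markers had an entry, and 1 of these, the seed storage protein gene CRA1, was listed at 0 in all 6 libraries.

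The stretch of 150 coding bases that encodes the start of the MADS domain, the DNA-binding part that defines the family, is shown for 4 genes because it bears on whether reads of related genes can be told apart. Sequences are from the RefSeq TAIR10.1 assembly, 5′ to 3′ on the coding strand, and capitals mark bases that differ from SHP1.
SHP1: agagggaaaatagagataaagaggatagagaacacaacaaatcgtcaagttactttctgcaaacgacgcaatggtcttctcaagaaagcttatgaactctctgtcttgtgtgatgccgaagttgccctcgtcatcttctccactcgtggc
SHP2: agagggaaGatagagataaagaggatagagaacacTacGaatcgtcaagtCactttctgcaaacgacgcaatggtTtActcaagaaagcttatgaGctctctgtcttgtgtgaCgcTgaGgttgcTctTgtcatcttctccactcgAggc
STK: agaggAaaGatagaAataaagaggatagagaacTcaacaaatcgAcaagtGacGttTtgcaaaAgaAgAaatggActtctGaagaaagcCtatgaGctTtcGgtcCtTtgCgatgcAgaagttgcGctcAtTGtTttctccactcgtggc
AGL87: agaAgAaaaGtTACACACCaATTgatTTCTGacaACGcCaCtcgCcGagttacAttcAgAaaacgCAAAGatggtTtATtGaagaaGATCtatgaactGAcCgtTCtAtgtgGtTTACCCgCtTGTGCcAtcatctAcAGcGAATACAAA
The SHP1 stretch lies at chr3:21739201-21739350 on the plus strand, the SHP2 stretch at chr2:17820653-17820802 on the plus strand, the STK stretch at chr4:6239254-6239403 on the minus strand and the AGL87 stretch at chr1:7983517-7983666 on the plus strand, each within 1 coding exon. SHP2 differed from SHP1 at 13 of the 150 bases, STK at 26 and AGL87 at 74. Over the longest annotated coding sequences, SHP1 and SHP2 were identical at 73.2% of aligned positions, and their longest shared run was 34 bases. FUL and SEP3 also shared a run of 34 bases, with 56.2% of positions identical. In TAIR10.1 the SHP1 gene spans chr3:21738160-21742517, SHP2 chr2:17820114-17824013 and AGL87 chr1:7981722-7984334, all on the plus strand, and STK spans chr4:6236375-6241281 on the minus strand.

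Genes on the other strand overlap exons of 4 of the genes, and reads that fall on both genes are left out of the unstranded counts. Reads shared between paralogs were not measured. AT2G42835 covers 56.7% of the exon bases of SHP2, and the sum of both strand columns held 2.38 times the unstranded count of SHP2. AT3G58790, annotated as GAUT15, covers 17.5% of the exon bases of SHP1, whose strand sum was 1.63 times its unstranded count. For AGL67, overlapped over 17.5% of its exon bases by AT1G77960, the ratio was 1.01. For STK, overlapped over 7.85% by AT4G09950, it was 1. The levels of SHP2 and SHP1 below are therefore low estimates, whereas reads of a gene and its antisense partner cannot be told apart in the strand sum.

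Per length and in unstranded counts, AGL67 and AGL15 had the highest levels of the 10 genes in every group of the second set. With the strand columns summed, SHP2 came first in AtWT, at 57.4 ± 3.47 CPM per kilobase (SD, n = 3) against 39.2 ± 6.89 for AGL67, and followed AGL67 and AGL15 in AtBD, at 35.7 ± 5.40. The order that follows is that of the unstranded counts. In CPM per kilobase of exon, AGL67 stood at 39.0 ± 6.34 in AtWT (SD, n = 3), AGL15 at 32.7 ± 3.51, STK at 28.7 ± 1.75, SHP2 at 24.5 ± 3.76, AGL87 at 22.8 ± 5.33 and SEP3 at 17.2 ± 2.63. Each of these 6 overlapped its neighbour in the order. AGL18 (13.3 ± 1.73), FUL (7.78 ± 0.425), SHP1 (3.80 ± 1.08) and TT16 (0.407 ± 0.403) followed, with no overlap between neighbours from SEP3 down.

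The order differed in the other groups. In AtBD the first 6 were AGL67 (57.9 ± 4.11), AGL15 (36.7 ± 6.45), STK (26.0 ± 2.68), SEP3 (17.6 ± 1.21), SHP2 (14.7 ± 0.570) and AGL18 (11.3 ± 2.08), and AGL87 had dropped to eighth place at 7.11 ± 0.708. In AtWTtr, AGL67 (121 ± 21.8), AGL15 (62.2 ± 14.9) and AGL87 (22.8 ± 10.4) stood clear of STK at 3.54 ± 0.408 and of the rest. In AtBDtr, AGL67 (125 ± 26.8) and AGL15 (50.3 ± 1.17) again stood clear, and every later neighbour from AGL87 (5.13 ± 1.69) down to SHP2 (0.795 ± 0.543) overlapped the next.

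The first set is on another scale, fragments scaled to transcript length and library size (FPKM), and its values cannot be set against those of the second. In the COL0 libraries other than the identical pair, STK was highest at 153 ± 14.2 FPKM (SD, n = 2), followed by AGL67 at 122 ± 3.28, AGL87 at 62.4 ± 1.24 and AGL18 at 55.8 ± 2.89. In badc-tdna13, AGL67 (151 ± 22.6) and STK (144 ± 19.3) overlapped, and AGL87 stood at 16.4 ± 12.4.

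**Figure D1:**
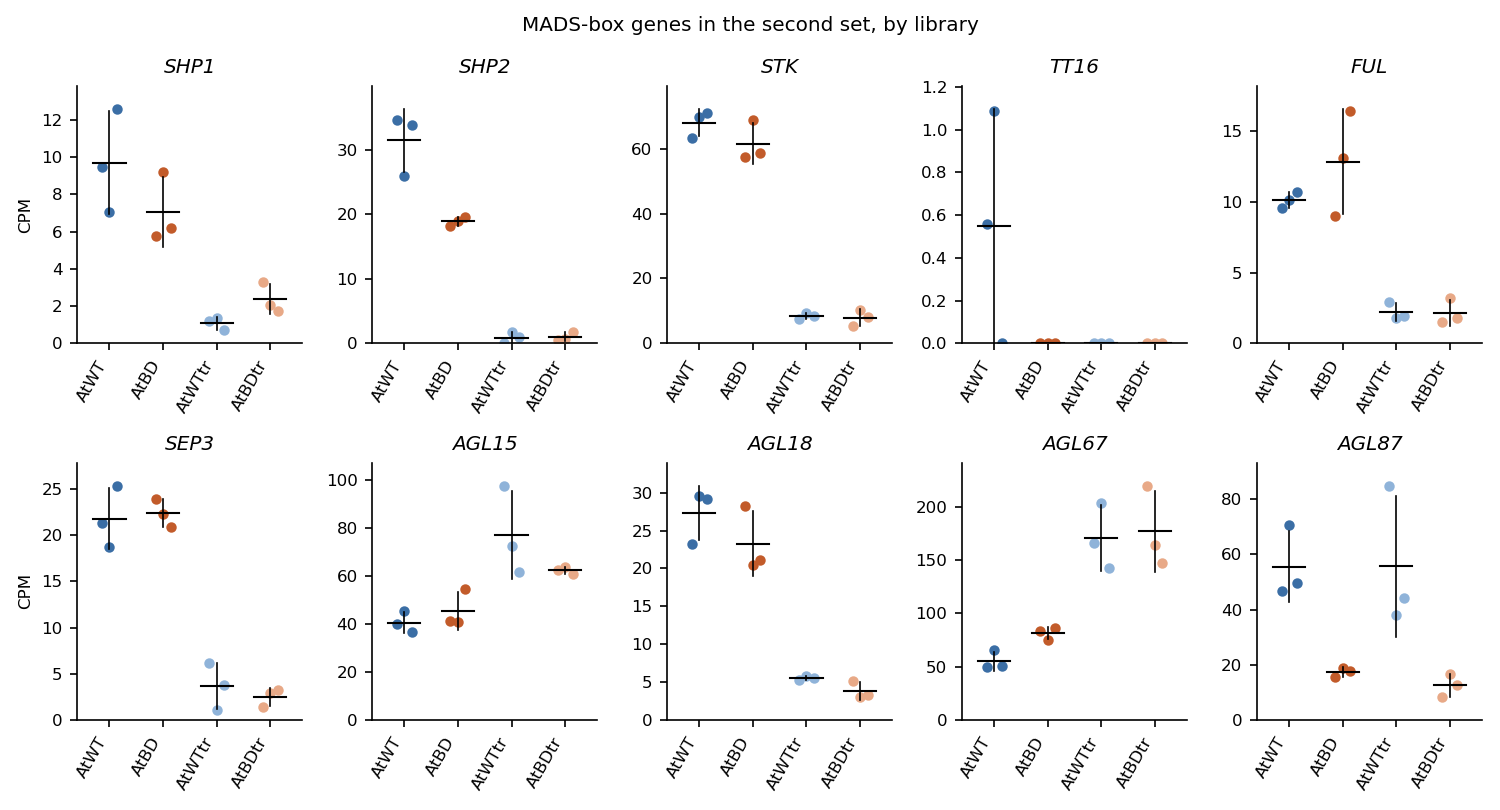
CPM of the 10 genes in each library of the second set (points), with the mean (horizontal line) and SD (vertical line) of 3 libraries per group, each panel on its own linear axis from 0. SHP1, SHP2, STK, FUL, SEP3 and AGL18 sat low in both tr groups, AGL67 sat high in them, and AGL87 separated the mutant groups from the wild-type groups.

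Most of the 10 genes differed between the tr libraries and the others. Of the 9 genes that passed the filter on low counts, 6 were lower in AtWTtr than in AtWT (SHP1, SHP2, STK, FUL, SEP3 and AGL18) and 2 were higher (AGL15 and AGL67) at an adjusted p under 0.05 in edgeR's quasi-likelihood test. Of all 19376 genes tested, 34.1% were called in this comparison, 19% lower and 15.2% higher. Groups did not overlap at these 8 genes, where 48.6% of all genes did not. The median log2 fold change was -2.30 over the 9 genes and -0.04 over all genes tested. These values are relative to the typical gene, because libraries were scaled by the trimmed mean of M values (TMM). Scaled by library totals alone, an alternative chosen after the factors were seen, the median of all genes was -0.99, and 2.17% of genes were called higher and 52.5% lower. The same 6 genes were lower under that scaling too, and AGL67 was the only one of the 9 called higher, while AGL87 was called lower.

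SHP2, which acts with SHP1 at the valve margin and in the ovule, had the greatest fall among the 9. It had 34.6, 25.9 and 33.9 CPM in the AtWT libraries and 18.1, 19.0 and 19.6 in AtBD, against 0, 1.73 and 0.979 in AtWTtr and 0.547, 0.692 and 1.82 in AtBDtr. All 6 tr libraries were below all 6 others. The log2 fold change was -5.10 (SE 0.64, adjusted p = 7.32e-05) for AtWTtr against AtWT and -4.16 (SE 0.62, adjusted p = 0.000331) for AtBDtr against AtBD, and both calls were kept with the strand columns summed.

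SHP1 had 9.47, 7.06 and 12.6 CPM in AtWT, 5.77, 9.22 and 6.19 in AtBD, 1.23, 1.35 and 0.699 in AtWTtr and 3.29, 2.08 and 1.76 in AtBDtr. The tr libraries were lower in both genotypes without overlap, by -3.14 (log2, SE 0.39, adjusted p = 1.47e-05) in wild type and -1.58 (SE 0.36, adjusted p = 0.00370) in the mutant. These falls were not seen when both strand columns were summed. SHP1 then had 8.82 to 13.3 CPM in AtWT and 7.87 to 15.1 in AtWTtr, and its log2 fold change was -0.07 (adjusted p = 0.874) in wild type and 0.25 (adjusted p = 0.544) in the mutant. The unstranded counts of the overlapping gene AT3G58790 were 64 to 171 in AtWT and 63 to 111 in AtWTtr, against 227 to 456 and 10 to 21 for SHP1. How much of the strand sum belonged to SHP1 was not tested.

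STK, which in Arabidopsis is also needed for seeds to detach from the fruit, has no reads in dispute between strands, with a strand sum equal to its unstranded count. Its levels were 63.2, 69.7 and 70.9 CPM in AtWT, 57.3, 68.9 and 58.5 in AtBD, 7.38, 9.31 and 8.46 in AtWTtr and 5.32, 10.3 and 8.16 in AtBDtr. The tr libraries lay far below the others in both genotypes. The log2 fold change was -3.02 (SE 0.23, adjusted p = 8.65e-08) in wild type and -2.95 (SE 0.22, adjusted p = 1.20e-07) in the mutant.

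TT16, a regulator of the innermost coat layer, the endothelium, was hardly detected. It had 27 and 35 counts in AtWT replicates 1 and 2 and none in AtWT replicate 3 or in the other 9 libraries of the second set, where no count allows up to 0.0404 CPM in AtBD, 0.0674 in AtWTtr and 0.0622 in AtBDtr (3 counts over a group, counting error only). It had 2 to 4 fragments per library in the first set. TT16 passed neither filter on low counts and was not tested.

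FUL had 9.57, 10.1 and 10.7 CPM in AtWT, 9.00, 13.1 and 16.4 in AtBD, 2.94, 1.80 and 1.96 in AtWTtr and 1.49, 3.23 and 1.76 in AtBDtr. SEP3 had 21.3, 18.7 and 25.4 CPM in AtWT, 24.0, 22.3 and 20.9 in AtBD, 6.15, 1.09 and 3.78 in AtWTtr and 1.41, 2.94 and 3.20 in AtBDtr. Neither gene overlapped between tr and other libraries in either genotype. FUL fell by 2.18 (log2, SE 0.34, adjusted p = 0.000128) in wild type and by 2.55 (SE 0.34, adjusted p = 3.89e-05) in the mutant, and SEP3 fell by 2.57 (SE 0.43, adjusted p = 0.000309) and by 3.13 (SE 0.44, adjusted p = 9.30e-05).

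AGL15 and AGL18, which act redundantly in the control of flowering, went opposite ways. AGL18 had 23.2, 29.6 and 29.2 CPM in AtWT, 28.2, 20.5 and 21.1 in AtBD, 5.26, 5.84 and 5.52 in AtWTtr and 5.16, 3.06 and 3.31 in AtBDtr. Its tr libraries were all lower, with log2 fold changes of -2.30 (SE 0.24, adjusted p = 2.59e-06) in wild type and -2.61 (SE 0.25, adjusted p = 9.84e-07) in the mutant. AGL15 had 39.9, 45.1 and 36.5 CPM in AtWT, 41.1, 40.6 and 54.7 in AtBD, 97.4, 72.2 and 61.5 in AtWTtr and 62.5, 63.6 and 60.7 in AtBDtr. Its tr libraries were all higher, by 0.93 (log2, SE 0.20, adjusted p = 0.00178) in wild type. In the mutant its difference was 0.45 (SE 0.20), which did not pass the threshold (adjusted p = 0.0906). Scaled by library totals, AGL15 differed by 0.01 (adjusted p = 0.964) in wild type and -0.27 (adjusted p = 0.421) in the mutant, so its call held relative to the typical gene and not relative to total counts.

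AGL67, which in Arabidopsis restrains germination at high temperature, had the highest level of the 10 in the tr libraries. It had 49.3, 65.3 and 50.4 CPM in AtWT, 83.4, 75.1 and 86.3 in AtBD, 166, 204 and 143 in AtWTtr and 219, 164 and 147 in AtBDtr. All tr libraries were above all others. The log2 fold change was 1.63 (SE 0.21, adjusted p = 1.87e-05) in wild type and 1.11 (SE 0.21, adjusted p = 0.000744) in the mutant. By library totals it was 0.70 (adjusted p = 0.0151) in wild type and 0.38 (adjusted p = 0.188) in the mutant, where the call was lost.

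AGL87 did not separate tr libraries from the others. The log2 fold change was 0.00 (SE 0.29, adjusted p = 0.998) in wild type and -0.47 (SE 0.30, adjusted p = 0.259) in the mutant, and the groups overlapped in both genotypes. By library totals it was -0.89 (adjusted p = 0.0358) and -1.19 (adjusted p = 0.0127), where the medians of all genes were -0.99 and -0.73.

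**Figure D2:**
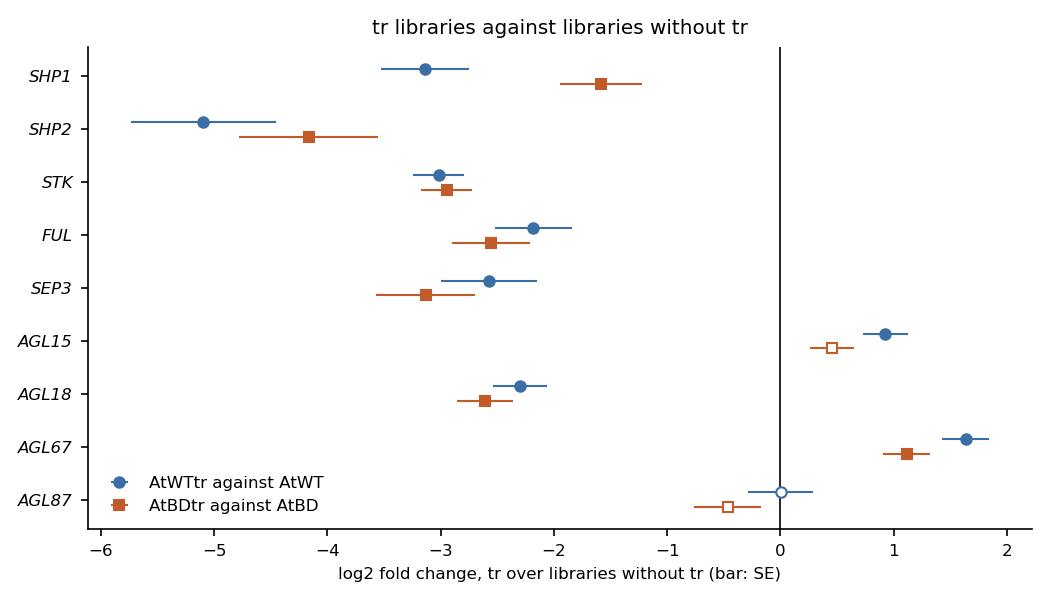
Log2 fold change of each of the 9 tested genes between tr libraries and libraries without tr, on a linear axis, for wild type (circles) and the mutant (squares), with the SE of the fit as bars and open symbols where the adjusted p was not under 0.05. SHP2 lay farthest to the left at -5.10 and -4.16, AGL67 farthest to the right at 1.63 and 1.11, and AGL87 near 0.

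In the mutant, AtBDtr against AtBD called 7 of the 9 genes, the same 6 lower and AGL67 higher, where 29.7% of all genes were called, 16.8% lower and 12.9% higher. Groups did not overlap at 8 of the 9 genes, AGL15 included, where 47% of all genes did not. The medians were -2.55 over the 9 genes and -0.03 over all genes. For the genotype difference of the tr ratio, 0 of the 9 genes and 0 of all 19376 (0%) were called with edgeR, 790 genes (4.08%) had an unadjusted p under 0.05, and DESeq2 called 4 genes, none of them among the 9. The largest difference among the 9 was that of SHP1 at 1.56 (log2, SE 0.52, adjusted p = 1), which was 0.32 (adjusted p = 1) with the strand columns summed. That AGL15 was called in wild type alone is not a difference between genotypes, since its own test gave -0.47 (SE 0.28, adjusted p = 1).

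Markers of other tissues moved with the same comparison. All 10 tested seed coat markers of a list of 11 were lower in both tr comparisons, and their summed level was 1120 to 1378 CPM in AtWT, 575 to 904 in AtBD, 143 to 204 in AtWTtr and 133 to 175 in AtBDtr, with 0 to 3 of the markers at 0 in a library. Among them MUM2, a galactosidase of mucilage, fell by 3.97 (log2, adjusted p = 5.07e-08) and SBT1.7, a mucilage protease, fell by 3.09 (adjusted p = 1.23e-07) in wild type. Most of the seed coat sum was SBT1.7, with 715 to 895 CPM in AtWT, 360 to 598 in AtBD and 77.6 to 82.3 in AtBDtr. Embryo markers summed to 60434 to 82756 CPM in AtWT, 96028 to 123740 in AtBD, 232890 to 395920 in AtWTtr and 214290 to 370030 in AtBDtr. Of the 7, 5 were higher in AtWTtr, including OLE1, an oil body protein, at 2.58 (adjusted p = 3.02e-06), and 2 were lower, LEC1 and LEC2, which act early in the embryo. LEC1 fell by 4.43 (adjusted p = 5.79e-05). Endosperm markers went both ways, with 1 higher (EPR1, at 1.94, adjusted p = 0.000250) and 2 lower (ALE1 and ZOU) of 4 tested, and 4 or 5 of the 9 were at 0 in each AtWTtr library. The part of these tissues in the results for the MADS-box genes was not tested. In bulk libraries fewer cells of a type and less RNA per cell cannot be told apart, and the labels do not say which cells the tr libraries sample.

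Other MADS-box genes, listed by structural class as type II, gave calls in both directions with TMM scaling and in 1 direction by library totals. Of 37 listed, 23 were tested, and 4 were lower and 4 higher in AtWTtr than in AtWT, with a median of -0.94. The lower ones included SEP1 (-4.01, adjusted p = 1.44e-07) and SEP2 (-2.63, adjusted p = 6.22e-07), close relatives of SEP3, and AP3 (-3.31, adjusted p = 5.85e-06), which specifies petals and stamens. FLC, the repressor of flowering before winter, was higher (1.35, adjusted p = 5.90e-05), as were its relatives MAF3, MAF4 and MAF5. None of these 4 was called by library totals, where FLC stood at 0.41 (adjusted p = 0.114). In the mutant 4 were lower and 2 higher. By library totals 9 were lower and 0 higher in wild type, with a median of -1.86, and again 9 and 0 in the mutant. The 9 are 39.1% of those tested. By the same scaling 52.5% of all genes were lower and 2.17% higher in wild type, and 38.1% and 2.16% in the mutant. Of 19 genes of the other class (type I), which act mainly in the female gametophyte and endosperm, only AGL80 passed the filter, and it was not called in any comparison.

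The genes that act with SHP and FUL in the fruit were called in both directions. Of 12 listed, 10 were tested, with 3 lower and 3 higher in AtWTtr and 4 lower and 3 higher in AtBDtr. By library totals 5 were lower and 2 higher in AtWTtr, and 5 lower and 1 higher in AtBDtr. The lower ones were 50% of the list each time, where 52.5% of all genes were lower in AtWTtr and 38.1% in AtBDtr. Of all genes, 2.17% and 2.16% were higher. ADPG1, a polygalacturonase of the dehiscence zone, stood at 24.3, 27.7 and 43.3 CPM in AtWT and 5.67, 9.89 and 6.50 in AtWTtr, which is -2.11 on the log2 scale (adjusted p = 6.42e-05), and ALC, a transcription factor of the separation layer, fell by 1.71 (adjusted p = 0.00159). FIL and YAB3, which mark the outer side of lateral organs and of cotyledons as well as the fruit valve, rose by 1.86 (adjusted p = 2.11e-05) and 1.63 (adjusted p = 2.28e-05). By library totals both were still called in wild type, at 0.87 (adjusted p = 0.00311) and 0.66 (adjusted p = 0.0182). FIL had 44.6, 36.2 and 34.7 CPM in AtWT and 121, 105 and 193 in AtWTtr. The list of 8 silique wall markers, drawn from the same genes, summed to 115 to 132 CPM in AtWT and 175 to 303 in AtWTtr and had 2 higher and 3 lower. Most of the AtWTtr sum was FIL. Only FIL and YAB3 rose, the other 6 had negative log2 fold changes, and the median of the 8 was -1.32.

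Genes of the endothelium and of proanthocyanidin synthesis, the tissue in which TT16 acts, were called lower or not at all. Of 9 listed, 8 were tested, and 6 were lower in AtWTtr and 4 in AtBDtr, with medians of -3.36 and -2.54 and none higher. By library totals 7 (87.5%) and 6 (75%) were lower, where 52.5% and 38.1% of all genes were. TT10, a laccase that browns the coat, had 676, 422 and 548 CPM in AtWT and 25.6, 13.6 and 25.9 in AtWTtr (log2 -4.66, adjusted p = 8.31e-08). BAN, the reductase that starts proanthocyanidin synthesis, had 24.4, 19.0 and 27.7 CPM in AtWT and 0.342, 0 and 0 in AtWTtr (-7.65, adjusted p = 2.09e-06). LDOX fell by 3.25 (adjusted p = 2.31e-07) and TT8 fell by 3.46 (adjusted p = 2.60e-06).

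Among 5 genes that AGL15 is known to regulate or act with in Arabidopsis, 4 were tested, with 3 higher and 1 lower in AtWTtr. ABI3, a maturation regulator, had 74.0, 45.4 and 68.5 CPM in AtWT and 255, 285 and 334 in AtWTtr, a rise of 2.22 (adjusted p = 1.21e-06). FUS3 rose by 0.85 (adjusted p = 0.000743) and IAA30 by 1.04 (adjusted p = 0.0265, with overlapping libraries), and LEC2 fell to 0, 0 and 0.0699 CPM from 1.72, 1.34 and 0.885. By library totals ABI3 was still higher at 1.24 (adjusted p = 0.000447), while FUS3 stood at -0.10 (adjusted p = 0.686) and IAA30 at 0.14 (adjusted p = 0.753). In the mutant the same 3 were called higher and LEC2 was not called.

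Between the genotypes, AGL87 stood out, and no role is given for it here. It had 46.6, 70.6 and 49.7 CPM in AtWT, 15.5, 19.0 and 17.6 in AtBD, 84.9, 38.1 and 44.1 in AtWTtr and 8.37, 16.6 and 12.6 in AtBDtr. Each mutant library of the second set was below each wild-type library. For AtBD against AtWT the log2 fold change was -1.68 (SE 0.30), with an adjusted p of 0.0559, so with edgeR 0 of the 9 genes passed the threshold where 0.0619% of all genes (12 of 19376) did. At an unadjusted p under 0.05 these numbers were 2 of 9 (AGL87 and AGL67) and 6.1% of all genes. AGL87 was called there with DESeq2 (adjusted p = 0.000160), without the filter (0.00917) and when only the 6 libraries compared were fitted (0.00166), and its adjusted p ranged from 0.000160 to 0.449 over all alternatives. For AtBDtr against AtWTtr it was -2.15 (SE 0.31, adjusted p = 0.00903), 1 of 9 genes called where 0.0516% of all genes (10 of 19376) were, 0.0361% lower. That call was lost without AtBDtr replicate 3 (adjusted p = 0.0590) and when only the 6 tr libraries were fitted (adjusted p = 0.294), with values of -2.15 and -2.16.

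In the first set AGL87 had 60.3 and 65.3 CPM in COL0 replicates 0 and 1, 21.6 and 7.58 in badc-tdna13 replicates 0 and 1, and 25.8 in both libraries of the identical pair. Leaving the pair out, the mutant libraries lay below the COL0 libraries, by -2.13 on the log2 scale (SE 0.48, adjusted p = 0.0607). It was called with DESeq2 (adjusted p = 2.71e-05) and by library totals (0.00212), and not with all 6 libraries (-1.46, adjusted p = 0.818); without badc-tdna13 replicate 0 it was -3.04 (adjusted p = 2.6e-06) and without replicate 1 it was -1.59 (adjusted p = 3.91e-05). Over the 12 libraries of the second set, the 2 genes most like AGL87 among 12386 compared were AT3G15690 (BADC3, Pearson r = 0.920) and AT3G56130 (BADC1, r = 0.913), the genes disrupted in the mutant. The libraries share genotype and tr status, so this is a description.

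**Figure D3:**
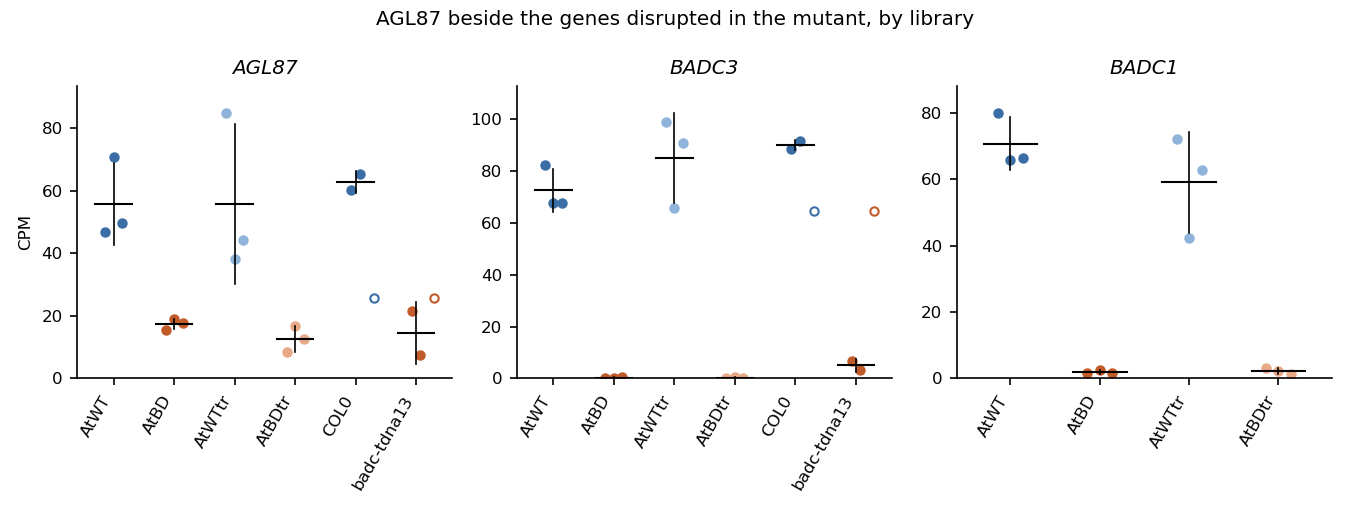
CPM of AGL87 and of the disrupted genes BADC3 and BADC1 in each library (filled points), with mean and SD of a group, on linear axes from 0. Open points are the identical libraries of the first set, which are in no mean; BADC1 is drawn for the second set alone. AGL87 stood at 8.37 to 19.0 CPM in the mutant libraries of the second set against 38.1 to 84.9 in wild type.

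The other 8 genes were not called between genotypes in the second set. AGL67 was higher in every AtBD library than in every AtWT library, at 0.57 on the log2 scale (SE 0.20, adjusted p = 0.629), and SHP2 was lower in every AtBD library, at -0.73 (SE 0.50, adjusted p = 0.997). With AGL87 that makes 3 of 9 genes whose groups did not overlap, where 19.7% of all genes did not. Among the tr libraries, SHP1 was higher in every AtBDtr library (1.10, SE 0.40, adjusted p = 0.977) and AGL18 was lower in every one (-0.54, SE 0.25, adjusted p = 0.978), and again 3 of 9 genes, with AGL87, did not overlap where 7.19% of all genes did not. With the strand columns summed, SHP1 overlapped between these groups (7.87 to 15.1 CPM in AtWTtr and 8.49 to 12.8 in AtBDtr) and differed by 0.01 (adjusted p = 1). The remaining differences between genotypes lay between -0.46 and 0.34 in the libraries without tr and between -0.52 and 0.20 in the tr libraries. No gene of the 5 lists of related genes was called in either genotype comparison of the second set. Seed coat markers had a median of -0.75 in AtBD against AtWT, with 0 of 10 tested called, and their summed levels did not overlap (575 to 904 against 1120 to 1378 CPM). Most of that sum was SBT1.7, at 360 to 598 against 715 to 895 CPM. By sign, 9 of the 10 markers were negative and 1 was positive. Any relation of these levels to that of SHP2 was not tested.

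In the first set, without the identical pair, 2 of the 8 genes tested were called, both lower in badc-tdna13, where 11.4% of all 18522 loci tested were called 5.59% lower and 5.79% higher. SHP2 had 57.3 and 58.7 CPM in COL0 and 25.7 and 27.5 in badc-tdna13, with 30.1 in the identical pair, and its log2 fold change was -1.14 (SE 0.14, adjusted p = 0.00993). AGL15 had 61.0 and 61.1 CPM in COL0 and 40.1 and 38.8 in badc-tdna13, with 43.2 in the pair, and differed by -0.65 (log2, SE 0.13, adjusted p = 0.0291). Both calls were lost without either COL0 library. Without COL0 replicate 0 the adjusted p was 0.119 for SHP2 and 0.304 for AGL15, without COL0 replicate 1 it was 0.210 and 0.380, and with all 6 libraries it was 0.818 for both. Over all 11 alternatives, SHP2 lost its call in 3 and AGL15 in 6. With all 6 libraries 0 of 18560 loci (0%) were called with edgeR, and 973 (5.24%) had an unadjusted p under 0.05. Groups did not overlap at 7 of the 8 genes, where 62.9% of all loci did not. In the second set the difference of AGL15 between AtBD and AtWT was 0.17 (SE 0.19, adjusted p = 0.997).

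FUL had 12.1 and 7.77 CPM in COL0, 15.6 and 28.0 in badc-tdna13 and 47.3 in the identical pair, above all others. Without the pair the difference was 1.13 (log2, SE 0.37) and did not pass (adjusted p = 0.112). Silique wall markers were also highest in the pair and lowest in COL0, although the COL0 libraries stood in the opposite order: their summed level over 7 genes was 158 and 170 CPM in COL0, 177 and 243 in badc-tdna13 and 330 in the pair. Their part in the level of FUL was not tested. The remaining genes differed by 0.33 (SHP1), 0.26 (AGL67), -0.19 (AGL18) and -0.09 (STK), none called. Of the related genes, the fruit list had 2 higher, IND (1.53, adjusted p = 0.0361) and RPL (0.79, adjusted p = 0.0263), and 1 lower, FIL (-0.78, adjusted p = 0.0192), of 8 tested. The endothelium list had 3 lower of 6, BAN (-1.47, adjusted p = 0.0226), TT8 (-0.75, adjusted p = 0.0229) and TT2 (-1.71, adjusted p = 0.0320). The type II list had 1 lower of 16, AGL44, which acts in root branching under nitrate (-2.04, adjusted p = 0.0116), and 0 of 1 type I gene and 0 of 4 genes of the AGL15 list were called. Seed coat markers had 1 higher and 2 lower of 9, and 0 of 4 embryo and 0 of 2 endosperm markers were called.

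**Figure D4:**
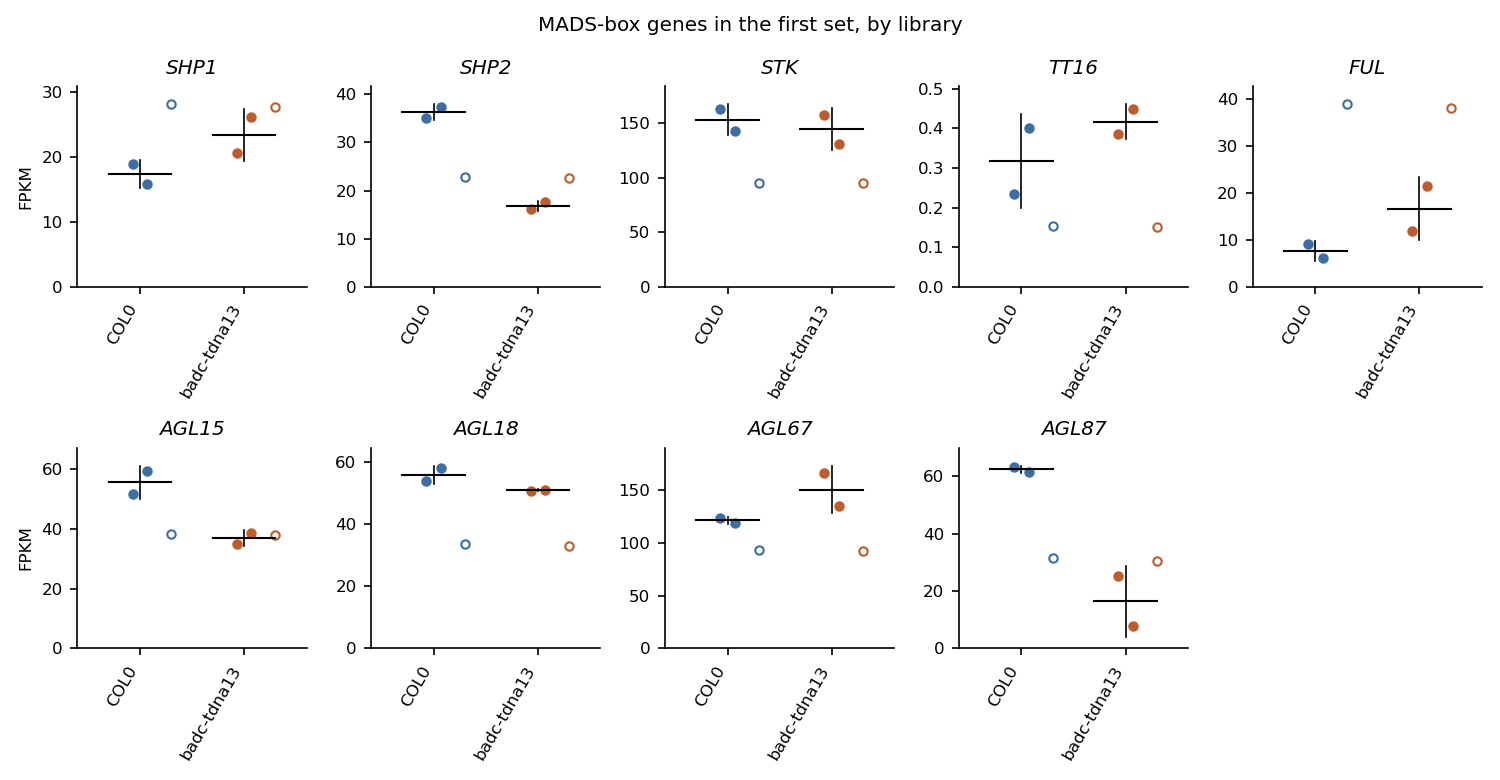
FPKM of the 9 genes with an entry in the first set, in each library (filled points), with mean and SD of the 2 libraries kept per group, each panel on its own linear axis from 0. Open points are COL0 replicate 2 and badc-tdna13 replicate 2, which hold the same fragments: at FUL they stood at 38.8 and 38.1 FPKM, above all other libraries, and at STK and AGL18 below them.

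Likeness over the 12 libraries of the second set is a description, since these fall into 2 kinds, tr and other. STK was most like AT3G62730 (Pearson r of log2 CPM 0.995) and KCS1 (AT1G01120, 0.995), an enzyme of very long chain fatty acid and wax synthesis, and AGL67 was most like ATS1 (AT4G26740, 0.996), a caleosin of the oil body, and GPX6 (AT4G11600, 0.994). For AGL15 these were ABIL4 (AT5G42030, 0.973) and VAP27-1 (AT3G60600, 0.968), and for SHP1, CK1 (AT1G71697, 0.969) and AT2G30550 (0.968). For SHP2 they were AT2G46000 (0.978) and AT5G48370 (0.977), and for FUL, KAT5 (AT5G48880, 0.983) and AT2G01610 (0.983). For SEP3 they were AT1G72230 (0.991) and AT4G17215 (0.989), and for AGL18, AT2G48020 (0.994) and AT1G17860 (0.989). All of these were compared over 12 libraries and about the same 12386 genes. Between the genes themselves, likeness was kept in the libraries of 1 kind for some pairs and not for others. STK and FUL correlated at 0.965 over the 12 libraries, at -0.09 over the 6 without tr and at 0.54 over the 6 tr libraries. SHP1 and SHP2 correlated at 0.853, 0.727 and 0.04 over the same libraries, and SHP2 and AGL67 at -0.881, -0.974 and -0.03. Libraries of 1 kind still hold both genotypes. Between AtBD and AtWT, SHP2 was lower and AGL67 higher without overlap, so -0.974 includes that split. Likeness within a genotype was not tested.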

How the data were processed

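Developing seeds gave 18 libraries of polyA RNA, 3 in each of 6 groups taken from the titles in the labels. Per the submitters' processing notes, TopHat, Cufflinks, Cuffdiff and the TAIR10 build were used, without versions. The first set comes as a Cuffdiff table in which, per the file headers, the authors deposited an estimated count of fragments for each locus, which need not be whole. Beside it stands the FPKM that the authors obtained from Cuffdiff, per the file headers. The columns number replicates from 0, unlike the titles. The second set is a table of raw counts that the authors deposited, and it equals the unstranded column of per-library files laid out like STAR output; reads on 2 genes are in neither.

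Fragments were rounded. Genes with low counts were dropped by filterByExpr, TMM scaling was used, and edgeR 4.0.16 (R 4.3.3) ran its robust quasi-likelihood test with Benjamini-Hochberg adjustment over all genes tested, at a threshold of 0.05. All 12 libraries of the second set entered 1 fit with a coefficient per group, and 4 of the 6 libraries of the first set entered another. CPM uses the TMM-scaled library total, and CPM per kilobase the union of exons in the RefSeq annotation of TAIR10.1, to which all coordinates refer. Coding sequences were aligned with Biopython 1.88. Floors cover counting error only.

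The genes and lists were chosen with earlier results of these data known. Names followed a rule: all 10 genes, up to 4 per list with the smallest adjusted p in AtWTtr against AtWT and up to 2 in each other comparison, if under 0.05, and the 2 genes most like each tested gene (mean log2 CPM of 2 or more). Other names were chosen after their values were seen. Lists were other type II and type I MADS-box genes, fruit patterning and dehiscence, endothelium and proanthocyanidin, genes of AGL15, and markers of seed coat, endosperm, embryo and silique wall. Results were recomputed with RLE scaling, with DESeq2 1.42.0, unfiltered, with the replicate number as a block, on only the libraries compared, on log2(FPKM + 1) and log2(FPKM + 0.1) in limma 3.58.1, on all 6 libraries of the first set, and leaving out each library. Summed strand columns and scaling by library totals were chosen later, with the data in view. The pipeline was tested on simulated data.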

Additional observations from a re-analysis of the deposited data

How the results depend on the processing

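Over 53 results of single genes and 718 alternative values, 689 kept their side of the threshold. These include changes of sign where neither value was called. For SHP2 in AtBDtr against AtWTtr, for example, the alternatives ran from -0.55 to 1.10. Of the rest, 14 lost a call, 13 gained one and 2 reversed, with a call lost or gained. The reversals were SHP1 for AtBDtr against AtBD with summed strand columns (0.25, from -1.58) and AGL87 for AtWTtr against AtWT by library totals (-0.89, from 0.00); reads shared with the overlapping gene enter the first by construction, and the cause of the second was not tested. The number of the 9 or 8 genes called was 0 for AtBD against AtWT and became 1 with DESeq2, without the filter and on only those 6 libraries. For AtBDtr against AtWTtr it was 1, became 0 with only the libraries compared, and was 0 to 1 when single libraries were left out. In the first set it was 2, and became 0 with all 6 libraries, 4 with DESeq2, 1 with log2(FPKM + 1), 1 with log2(FPKM + 0.1) and 0 to 5 without single libraries, where a lone library was assumed to vary like the other group. Among all genes, the calls for AtBD against AtWT (12) became 77 with DESeq2, 26 without the filter, 288 with only the libraries compared and 6 to 8 without single libraries. For AtBDtr against AtWTtr (10) DESeq2 gave 21 and only the libraries compared gave 5, for the genotype difference of the tr ratio (0) they became 4 with DESeq2, and for AtWTtr against AtWT (6616) they became 10597 by library totals. In the first set (2107) they became 0 with all 6 libraries, 609 with log2(FPKM + 1), 581 with log2(FPKM + 0.1) and 3 to 7575 without single libraries. The causes of these moves were not tested. In the second set, libraries that share a replicate number did not deviate together: 0 of 3 pairs exceeded a correlation of 0.1, in any of 4 comparisons. With the replicate block the genes called among the 9 numbered 0 for AtBD against AtWT, 1 for AtBDtr against AtWTtr, 8 for AtWTtr against AtWT and 7 for AtBDtr against AtBD, and the calls among all genes were 10, 7, 5878 and 4852; no pairing applies to the first set, whose table numbers its replicates apart from the titles. Few counts limit SHP1, SHP2, FUL and SEP3 in the tr libraries, where SHP2 had 0 to 33 counts.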

Other observations

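SEP3 has no value for the first set under its identifier. The table of that set holds 15 loci whose symbol cell is a number and whose identifier is missing. One of them carries 45538, which as a spreadsheet date is 3 September 2024, and had 515 to 974 fragments in its 6 entries. Since SEP1, SEP2 and SEP3 are symbols that spreadsheets turn into dates, and 45536 and 45537 each occur at 2 loci, the entries were not assigned to genes.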
